A study of Mus musculus with 4 samples.

Results

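The nuclear factor I genes Nfia, Nfib, Nfic and Nfix were followed across cell types of the mouse olfactory epithelium between birth and weaning age. The members were taken by name, and all 4 were present among the 49671 gene symbols of the unique molecular identifier (UMI) tables. They encode transcription factors that bind DNA as dimers at a palindromic site. In the developing mouse brain they are known for moving progenitors out of division and into neuronal and glial maturation, and Nfix and Nfib also act in muscle, lung and hair follicle stem cells. In the mouse olfactory epithelium Nfia, Nfib and Nfix have been described as graded between the dorsal and ventral parts of the tissue and as taking part in the choice of ventral odorant receptors.

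CD-1 mice, which are outbred and for which the labels name no transgene or treatment, gave olfactory epithelium on postnatal day 0 (P0), 3 (P3), 7 (P7) or 21 (P21). Each age is 1 single-cell library. The tissue was freed with papain and the cells were sorted, by a gate that is not given in the sources used here, before droplet capture and 3' tagging. How many mice, and of which sex, went into a library is also not given. Each table held 1416 to 3220 cells and 6861044 to 17770838 UMIs. The P0 and P3 libraries shared 68 cell barcodes, and the other pairs 1 to 9. Leaving those cells out changed no call on a nuclear factor I gene.

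Cells were grouped by gates on marker genes that include no nuclear factor I gene, after each cell was thinned to 1500 UMIs. Progenitors, the globose basal cells and precursors of neurons, carried at least 2 UMIs in sum over a short list of neurogenic factor genes that includes Neurog1 and Neurod1. Immature olfactory sensory neurons carried at least 2 of Gap43, mature ones at least 2 of Omp, and the Gap43+Omp gate took neurons with both. Keratin genes marked basal cells, a reserve of stem cells, collagen genes with Dcn marked stromal cells, and Schwann-lineage genes marked glia. The 4 libraries gave 228, 451, 138 and 45 progenitors at P0, P3, P7 and P21, 675, 519, 356 and 122 Gap43 cells, 166, 135, 73 and 68 Gap43+Omp cells, and 319, 349, 347 and 801 Omp cells. The basal gate held 72, 185, 73 and 60 cells, the stromal gate 149, 512, 143 and 11, and the glial gate 25, 46, 20 and 5. Separate marker lists were highest in their own gate in 4 of 4 libraries for the progenitor, Gap43, Omp, basal, stromal and glial gates. In the basal gate the sustentacular list also reached 5171 to 7181 CPM, of which Cbr2 alone gave 4495 to 6538 CPM. Ces1d gave 365 to 773 CPM and Fmo2 212 to 266 CPM there, whereas Sult1c1 reached at most 21.8 CPM and Cyp1a2 at most 5.16 CPM. The sustentacular list was highest in its own gate in 3 of 4 libraries, with 6069 CPM there at P3 against 7181 CPM in the basal gate.

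Levels are given in CPM, a gene's share of all UMIs summed over the cells of a gate in 1 library. Each UMI stands for 1 tagged transcript end, so that no length enters, although genes may be captured with unequal efficiency. Differences between gates were tested with edgeR's quasi-likelihood test on these sums, with library as a block and Benjamini-Hochberg adjustment over all genes tested, and were called at an adjusted p under 0.05. The 4 libraries are the replicates of a gate difference, each at another age.

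Nfix lies on chromosome 8 from 84699876 to 84800344 on the minus strand (mm10), Nfia on chromosome 4 from 97772734 to 98118874 on the plus strand, Nfib on chromosome 4 from 82290173 to 82705750 on the minus strand, and Nfic on chromosome 10 from 81396186 to 81455635 on the minus strand. Other annotated genes overlap each of them, such as Lyl1 within the Nfix locus and E130114P18Rik within Nfia, both on the opposite strand. Whether counting used strand is not given in the sources used here, and reads in shared stretches cannot be assigned with certainty. RefSeq promoters of build GRCm38.p6 matched 3 of the 4 members, with 4 entries for Nfix. A pair of Nfix starts is shown because Nfix carries most of the neuronal results, and the data, read from transcript ends, do not tell which start was used. Capitals mark the core of the factors' site (TTGGC, or GCCAA on the other strand).

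Nfix promoter 1, chr8:84780033-84780332, minus strand: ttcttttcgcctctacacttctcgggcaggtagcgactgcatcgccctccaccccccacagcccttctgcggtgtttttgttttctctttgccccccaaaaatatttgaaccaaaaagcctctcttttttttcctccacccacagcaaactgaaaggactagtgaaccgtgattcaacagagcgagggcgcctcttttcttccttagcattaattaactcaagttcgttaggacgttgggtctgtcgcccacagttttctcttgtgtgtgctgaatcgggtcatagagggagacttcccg

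Nfix promoter 4, chr8:84772826-84773125, minus strand: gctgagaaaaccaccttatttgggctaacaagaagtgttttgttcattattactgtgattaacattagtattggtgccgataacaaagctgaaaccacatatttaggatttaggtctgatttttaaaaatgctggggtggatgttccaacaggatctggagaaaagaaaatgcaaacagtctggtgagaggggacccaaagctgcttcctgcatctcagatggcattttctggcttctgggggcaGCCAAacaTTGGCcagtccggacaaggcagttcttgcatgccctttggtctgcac

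Promoter 1 held no core, and promoter 4 held an inverted pair of cores at positions 246 and 254, with 3 bases between them and GCCAA first. These were the fewest and the most cores of the 4 Nfix entries. Nfix entries 2 and 3, not shown, held 1 core each, and the entries of Nfia and Nfic held none. The full palindrome, TTGGC and GCCAA in that order with any 5 bases between them, was in none of the members' entries and in 12 of 32851 promoters (0.0365%), searched on both strands. The core alone is common, at 46.7% of these promoters.

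Along the neuronal lineage the family changed over from Nfib to Nfix. Nfib, which had the highest level of the 4 in progenitors of every library, was far lower in Gap43 and Omp cells, and Nfia followed the same course. Nfix rose at both steps, and Nfic rose at the second.

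Nfib stood at 141, 192, 196 and 199.8 CPM in progenitors of P0, P3, P7 and P21, at 45.1, 40.8, 72.8 and 65.1 CPM in Gap43 cells, at 37.7, 22.9, 42.2 and 42.4 CPM in Gap43+Omp cells, and at 29.97, 32.9, 36.2 and 50.5 CPM in Omp cells. All 4 progenitor values lay above all values of the 3 neuronal gates, and the ranges of the Gap43 and Omp gates overlapped. From Gap43 over progenitor cells Nfib fell by 1.86 on the log2 scale (SE 0.124, n = 4 libraries, edgeR adjusted p = 2.37e-15).

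Nfia stood at 31.9, 33.3, 54.8 and 159 CPM in progenitors, at 15.98, 17.9, 19.4 and 15.0 CPM in Gap43 cells, at 5.39, 5.08, 11.1 and 13.4 CPM in Gap43+Omp cells, and at 6.97, 6.17, 10.2 and 14.5 CPM in Omp cells. The Gap43 and progenitor ranges did not overlap, nor did those of the Omp and Gap43 gates, and the P21 progenitors stood far above those of the other ages. Nfia fell by 1.59 in Gap43 over progenitor cells (SE 0.224, n = 4 libraries, edgeR adjusted p = 1.46e-07).

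Nfix ran the other way. It stood at 14.2, 33.3, 86.9 and 103 CPM in progenitors, at 93.0, 87.4, 123 and 135 CPM in Gap43 cells, at 149, 132, 256 and 201 CPM in Gap43+Omp cells, and at 170, 176, 272 and 336 CPM in Omp cells. Within each library the Omp gate had the highest value of these 4 gates, while ranges over ages overlapped between Gap43 and progenitor cells. Nfix was 1.04 higher on the log2 scale in Gap43 over progenitor cells (SE 0.173, n = 4 libraries, edgeR adjusted p = 2.89e-06) and 1.22 higher in Omp over Gap43 cells (SE 0.0894, n = 4 libraries, edgeR adjusted p = 1.21e-05).

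Nfic, the least abundant member in progenitors, had 3.54, 10.2, 7.14 and 0 CPM there, the last from no UMI among 45 cells, for which a floor of 3 UMIs is 8.81 CPM. It had 7.78, 12.7, 15.8 and 17.5 CPM in Gap43 cells and 22.3, 22.6, 29.4 and 25.8 CPM in Omp cells. The Omp values all lay above the Gap43 values. Nfic was 1.08 higher in Omp over Gap43 cells (SE 0.199, n = 4 libraries, edgeR adjusted p = 0.00199). In Gap43 over progenitor cells its difference of 0.75 missed the threshold (SE 0.340, n = 4 libraries, edgeR adjusted p = 0.0528), and without the P3 library it was 1.40 and called.

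**Figure D1:**
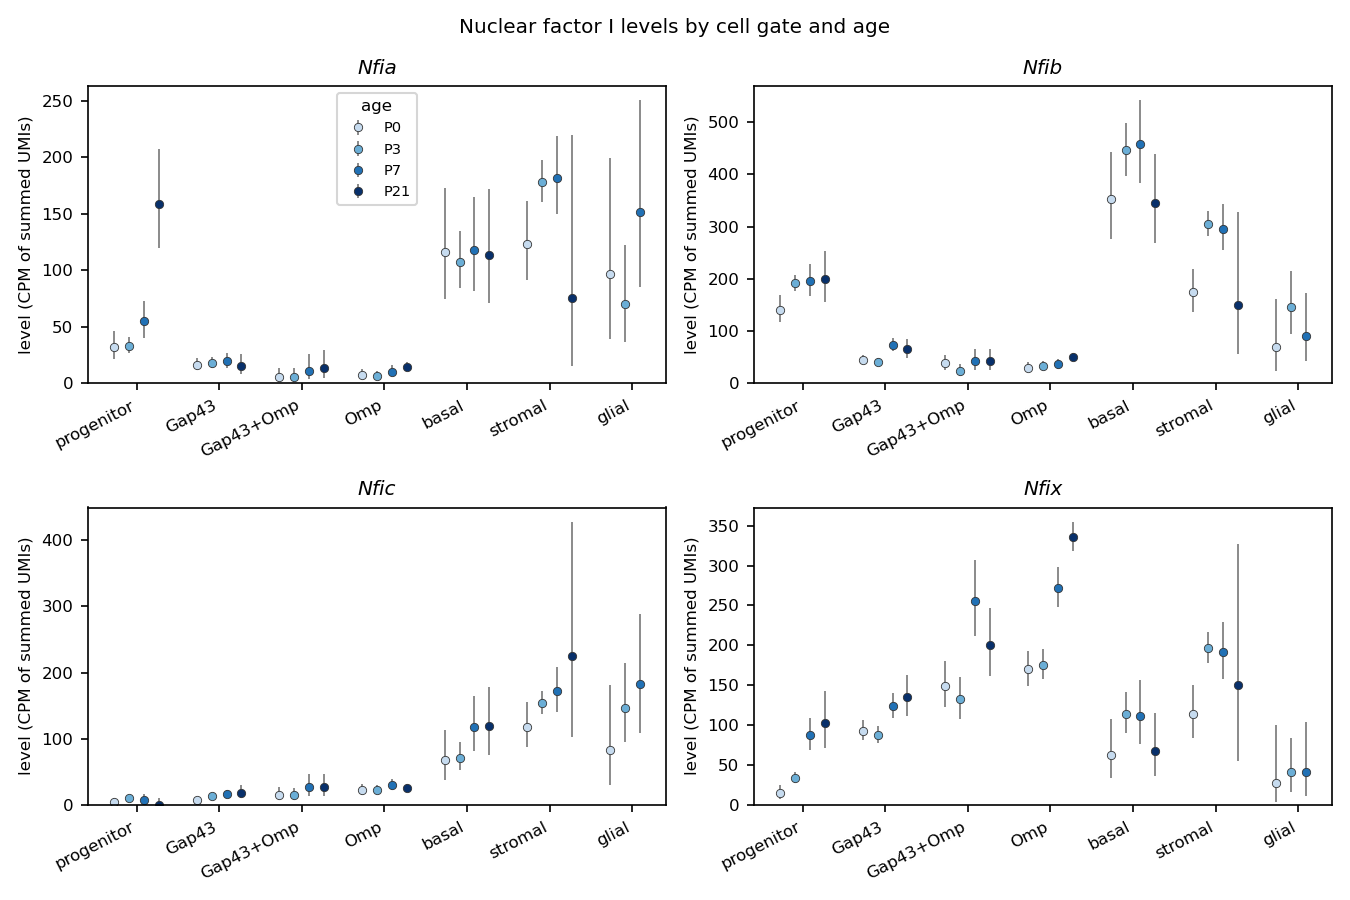
Level of each member (y axis, CPM of summed UMIs) by cell gate (x axis) and age (shade, 1 library each). Points are single libraries and bars exact Poisson 95% intervals, which cover counting error; sums of fewer than 10 cells are left out. Nfib and Nfia are higher in progenitors and basal cells than in Omp cells, where Nfix reaches 170 to 336 CPM.

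In Gap43 over progenitor cells, 2 of the 4 members were lower and 1 was higher, where 31.4% of 11031 genes tested were lower and 33.9% higher. In Omp over Gap43 cells, 2 were lower and 2 higher, with 25.6% of 11540 genes tested called in each direction. Calls are thus common in both comparisons, and the members' count by itself does not set them apart from other genes. The second step of the decline was weak: Nfia fell by 0.78 in Omp over Gap43 cells (SE 0.267, n = 4 libraries, edgeR adjusted p = 0.0380) and Nfib fell by 0.43 (SE 0.140, n = 4 libraries, edgeR adjusted p = 0.0292). Neither call held with stricter gates (-0.34 for Nfia, -0.17 for Nfib), nor without the P0 library (-0.70 and -0.43) or the P7 library (-0.77 and -0.27), and that of Nfia was also lost without the P3 library (-0.57). Over the whole span, Omp over progenitor cells, Nfia was lower by 2.71 and Nfib by 2.23, while Nfic was 1.82 and Nfix 2.25 higher, where 33.9% of 11201 genes tested were lower and 37.5% higher; all 4 were called.

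The make-up of the family's transcripts shows the same change within each library. Of the UMIs of the 4 genes, Nfib gave 61.4 ± 14.2% in progenitors, 28.2 ± 2.4% in Gap43 cells and 12.3 ± 1.5% in Omp cells (SD, n = 4 libraries). Nfix gave 16.8 ± 8.3%, 56.0 ± 2.2% and 76.3 ± 2.5% in the same gates, and already 73.8 ± 2.7% in the Gap43+Omp cells between them. Nfia gave 19.9 ± 9.9% in progenitors and 2.99 ± 0.33% in Omp cells. The progenitor shares spread over the libraries, from 43.3 to 73.9% for Nfib, from 12.4 to 34.4% for Nfia and from 7.45 to 25.2% for Nfix.

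**Figure D2:**
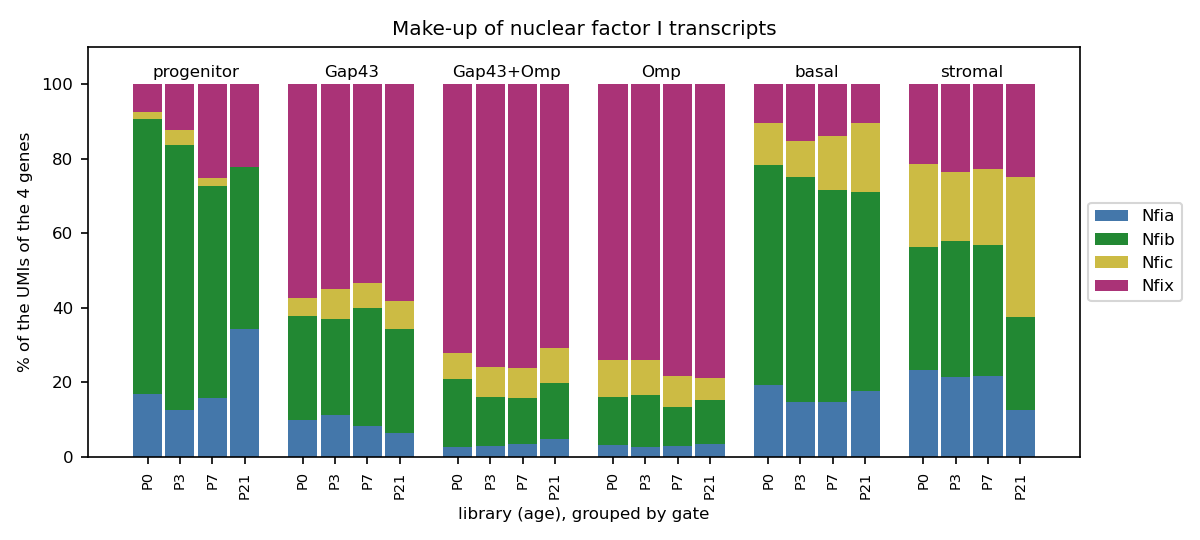
Share of the UMIs of the 4 genes (y axis, %) in each library (bars, by age) of 6 gates. Nfib holds most of the bar in basal cells, and Nfix holds 74.0 to 78.7% in Omp cells.

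By the fit over the 4 libraries, all 4 genes were higher in basal cells than in progenitors. Nfib and Nfic were higher in 4 of 4 libraries, whereas Nfia and Nfix were higher in P0, P3 and P7 and lower in P21, where progenitors stood at 159 CPM of Nfia and 103 CPM of Nfix. Nfib stood at 352, 446, 458 and 345 CPM in basal cells of P0, P3, P7 and P21, above all values of the other 5 tested gates. Nfia stood at 116, 108, 118 and 113 CPM in basal cells, the narrowest spread of any member in any of these gates relative to its level. Nfic stood at 67.6, 71.2, 118 and 119 CPM and Nfix at 62.8, 113, 111 and 67.0 CPM. In basal over progenitor cells the differences were 1.24 for Nfia, 1.29 for Nfib, 3.59 for Nfic and 1.11 for Nfix on the log2 scale, with SE 0.230, 0.133, 0.300 and 0.248 (n = 4 libraries; edgeR adjusted p = 1.38e-05, 4.51e-11, 1.26e-13 and 0.000192). All 4 were called, where 26.7% of 9220 genes tested were higher. Nfic, with 40 UMIs in progenitors, had enough for the test against them only through the basal, stromal or Omp gate it was compared in. Counts that include it there are no test against the shares over all genes. For Nfix the call was lost without the P3 library (0.65) and by DESeq2 (0.99). The part of the sustentacular-list signal named above in these values was not tested. Sustentacular-gated cells, few as they were, had 327, 169, 367 and 368 CPM of Nfib.

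Stromal cells also carried all 4 genes, and they differed most from progenitors in Nfic, which stood at 118, 154, 172 and 226 CPM in stromal cells, against 3.54, 10.2, 7.14 and 0 CPM in progenitors. Nfic was 4.36 higher (SE 0.259, n = 4 libraries, edgeR adjusted p = 2.49e-61), Nfix 1.94 higher (SE 0.204, n = 4 libraries, edgeR adjusted p = 1.80e-20) and Nfia 1.79 higher (SE 0.201, n = 4 libraries, edgeR adjusted p = 5.04e-18). Nfib, at 175, 305, 296 and 150.5 CPM in stromal cells, was 0.47 higher (SE 0.193, n = 4 libraries, edgeR adjusted p = 0.0272), a call lost without the P0 (0.49), P3 (0.37) or P7 library (0.51), by DESeq2 (0.41) and without a gene filter (0.25). All 4 were thus called, where 29.9% of 10318 genes tested were higher. The P21 stromal values come from 11 cells, with 3 UMIs of Nfia among them. A list of 5 mural markers, genes of the cells around vessels, summed to 5454, 5949, 6213 and 2508 CPM in the stromal gate, against 3040, 2656, 3112 and 3159 CPM of the stromal list. Acta2 gave most of it, and of the 5 markers Myh11 alone was at 0, in P21. Its part in these results was not tested.

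Glial cells could be compared in the P0, P3 and P7 libraries. The endothelial list summed to 1384, 833 and 1843 CPM in them, of which Cldn5 gave 1357, 815 and 1792 CPM, while Cdh5 and Flt1 were at 0 in all 3 and Pecam1 reached at most 10.1 CPM. Nfic stood at 83.1, 146 and 182 CPM in glia and was 4.19 higher than in progenitors (SE 0.422, n = 3 libraries, edgeR adjusted p = 9.14e-22). Nfia stood at 96.9, 69.9 and 152 CPM and was 1.38 higher (SE 0.361, n = 3 libraries, edgeR adjusted p = 0.000775), which was not called in a joint fit of all 6 gates (0.71). Nfib, at 69.2, 146 and 91.1 CPM, gave -0.67 (SE 0.287, n = 3 libraries, edgeR adjusted p = 0.0605) and was not called. It was called lower without the P3 library (-0.93) and in 6 other settings, from -0.73 with median-of-ratios scaling to -1.30 with stricter gates, and gave -0.32 from thinned UMIs. Nfix, at 27.7, 40.8 and 40.5 CPM, gave -0.14 (SE 0.479, n = 3 libraries, edgeR adjusted p = 0.874), and without the P7 library 0.45. Of the 4 members 2 were higher, where 15.7% of 7818 genes tested were higher. In leukocytes, cells outside the epithelial and neural lineages, Nfia had 1 UMI, Nfib 4 and no library passed 21.4 CPM of either. Nfix also had 4 UMIs in leukocytes. Nfic had 15, at 0 to 77.6 CPM over the libraries, with a mean of 34.8 CPM against 25.04 CPM in Omp cells.

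**Figure D3:**
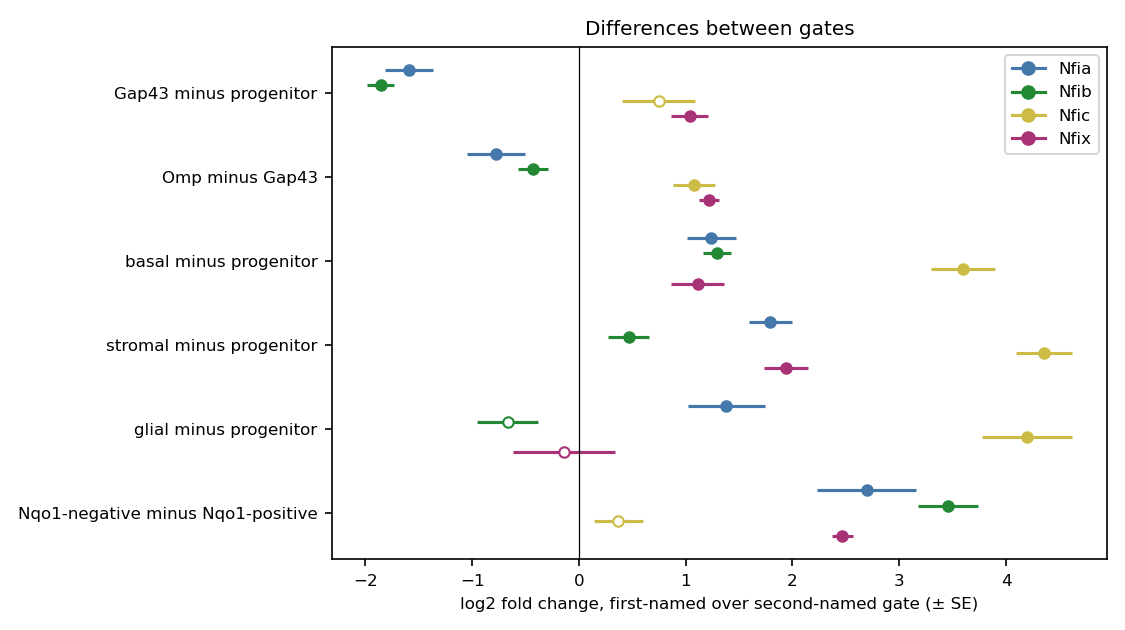
Difference of each member (colour) between gates (rows), as log2 fold change of the first-named over the second-named gate (x axis). Bars are standard errors derived from edgeR's log2 fold change and F statistic, and open points missed the adjusted p of 0.05. Nfia and Nfib lie left of 0 and Nfic and Nfix right of it in both neuronal steps, and all 4 lie right of 0 in basal and stromal cells.

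Ranked by mean over libraries, Nfia ran from stromal over basal, glial and progenitor to Gap43 and Omp cells. Its ranges over libraries did not overlap between progenitor and Gap43 cells, nor between Gap43 and Omp cells. The latter gap was narrow, with 15.0 CPM (interval 7.76 to 26.2) in Gap43 and 14.5 CPM (10.9 to 18.9) in Omp cells of P21. Nfib ran from basal over stromal, progenitor, glial and Gap43 to Omp cells, and only basal cells stood clear of the next gate. Nfic ran from stromal over glial, basal, Omp and Gap43 cells to progenitors, with clear steps between basal and Omp and between Omp and Gap43 cells. Nfix ran from Omp over stromal, Gap43, basal and progenitor to glial cells, and all neighbours overlapped over the ages.

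Among mature neurons, the family differed by dorsal and ventral type. Nqo1, an oxidoreductase gene of dorsal olfactory neurons, split the Omp gate into cells without a thinned UMI of it (132, 174, 183 and 523 cells) and cells with at least 2 (162, 144, 132 and 213 cells). Median depths were 4973, 4350, 4577 and 4442 UMIs in Nqo1-negative cells, against 4494, 6657, 4816 and 4359 UMIs in Nqo1-positive cells, so that the P3 library had the widest gap. Nfix, Nfib and Nfia were higher in Nqo1-negative cells of every library, and Nfic was not called.

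Nfix stood at 309, 302, 422 and 463 CPM in Nqo1-negative cells of P0, P3, P7 and P21, against 52.5, 63.5, 87.3 and 62.6 CPM in Nqo1-positive cells. The groups did not overlap, and the lowest Nqo1-negative library lay well above the highest Nqo1-positive one. Nfix was 2.47 higher on the log2 scale (SE 0.0969, n = 4 libraries, edgeR adjusted p = 5.87e-19), which by p placed it at rank 7 of 9344 genes tested.

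Nfib stood at 52.6, 65.3, 60.3 and 73.4 CPM in Nqo1-negative cells, against 11.4, 3.403, 7.40 and 2.02 CPM in Nqo1-positive cells, which held 18 Nfib UMIs in all. It was 3.46 higher (SE 0.279, n = 4 libraries, edgeR adjusted p = 4.69e-11). Nfia stood at 9.56, 11.1, 16.9 and 20.6 CPM, against 4.26, 2.27, 1.48 and 1.01 CPM in Nqo1-positive cells from 7 UMIs in all, and was 2.70 higher (SE 0.465, n = 4 libraries, edgeR adjusted p = 0.000145), a call that DESeq2 did not make (2.68). Nfic stood at 27.1, 33.2, 27.5 and 25.02 CPM, against 18.4, 14.7, 28.1 and 22.2 CPM in Nqo1-positive cells. Its groups overlapped, and its difference was 0.37 (SE 0.227, n = 4 libraries, edgeR adjusted p = 0.508). Thus 3 of the 4 members were higher, where 2.49% of 9344 genes tested were higher and 2.7% lower. Nfia and Nfib had enough UMIs for the test only through the Nqo1-negative cells, so this count is no test against those shares.

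The split was repeated with Acsm4, another dorsal gene, which was added once the data had been seen. Nfix was then 2.27 higher and Nfib 2.78 higher in Acsm4-negative cells and both were called, where 0.959% of 9076 genes tested were higher; Nfia, at 2.15, and Nfic, at 0.06, were not called. The same Nqo1 split of immature Gap43 cells, also added, gave Nfix 2.20, Nfib 3.04 and Nfia 2.46 higher in Nqo1-negative cells, where 6.98% of 9301 genes tested were higher. Nfix stood there at 117, 103, 144 and 162 CPM in Nqo1-negative cells, against 24.4, 25.5, 17.1 and 39.8 CPM in Nqo1-positive cells, and the groups did not overlap. Nfic gave -1.19 in that split, where 9.24% of genes were lower, and lost the call without the P0 (-0.75) or the P3 library (-1.23). Nqo1-negative cells numbered 502, 403, 287 and 98 in the Gap43 gate, against 103, 61, 29 and 17 Nqo1-positive ones. Cells that had yet to express Nqo1 would count as Nqo1-negative there, and the part of maturity in that split was not tested. In both added splits Nfia and Nfib had enough UMIs for the test only through the negative cells. The same held for Nfix in the Gap43 split, so these calls are no test against the shares over all genes.

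**Figure D4:**
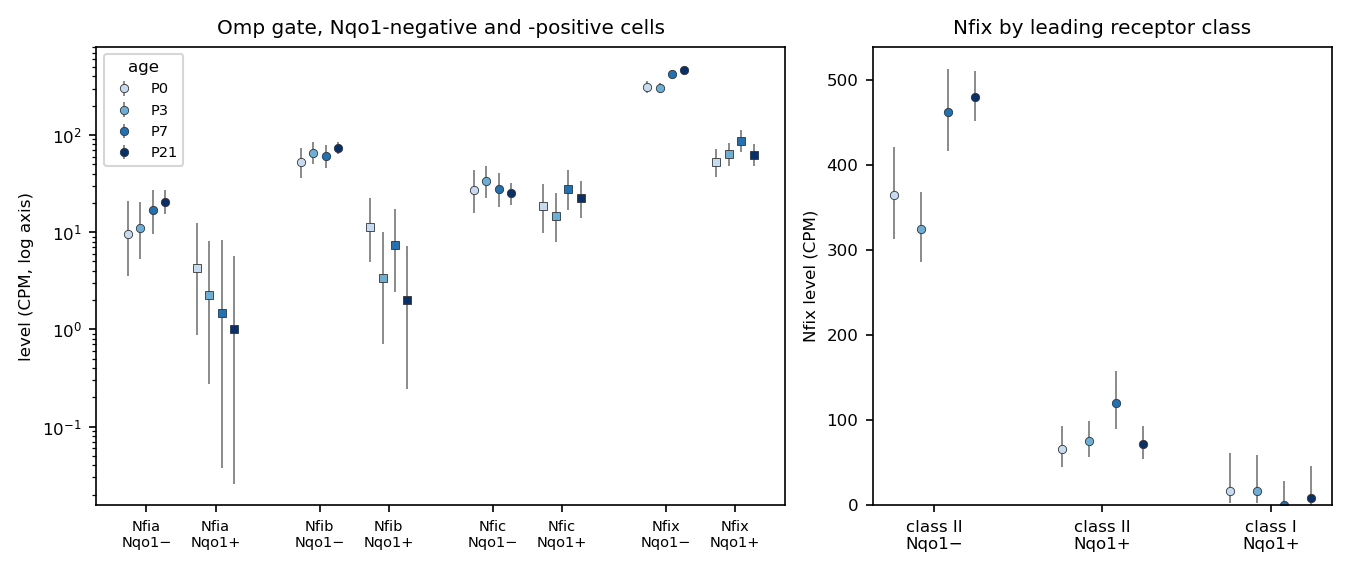
Left, level of each member (y axis, CPM on a log scale) in Nqo1-negative (−) and Nqo1-positive (+) cells of the Omp gate; right, Nfix level (y axis, CPM) by the class of the leading receptor and Nqo1. Points are libraries shaded by age and bars exact Poisson 95% intervals. Nfix reaches 302 to 463 CPM in Nqo1-negative cells and at most 87.3 CPM in Nqo1-positive cells.

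Receptor class gave a further step within the dorsal type. Olfactory receptors fall into class I, found in dorsal neurons, and class II, found in dorsal and ventral neurons. In Nqo1-positive cells with a leading class II receptor, Nfix stood at 65.5, 75.6, 119.7 and 71.8 CPM (111, 104, 81 and 159 cells), against 16.9, 16.4, 0 and 8.27 CPM in those with a leading class I receptor (28, 23, 27 and 26 cells). The class I values rest on 2, 2, 0 and 1 UMIs, and the groups did not overlap. Nfix was 2.96 higher in class II cells by the fit (SE 0.464, n = 4 libraries, edgeR adjusted p = 1.68e-05), where 0.486% of 6172 genes tested were higher. DESeq2 gave 2.95 without a call. This comparison, too, was added once the data had been seen. Nfix had enough UMIs for it only through the class II cells, so its call is no test against the share over all genes. Nqo1-negative class II cells stood higher again, at 365, 325, 463 and 481 CPM. Nfic, the other member with enough UMIs for a test, gave -0.11 and was not called.

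In thinned cells, an Nfix UMI was found in 26.5, 35.1, 40.4 and 47.0% of Nqo1-negative cells, against 4.32, 11.8, 8.33 and 8.92% of Nqo1-positive cells. Leukocytes, for comparison, gave 2.78, 0, 0 and 0%. Unthinned, the shares were 67.4, 63.2, 63.4 and 77.2% of Nqo1-negative cells, against 17.9, 27.1, 24.2 and 19.7% of Nqo1-positive cells. Those of leukocytes were then 2.78, 1.59, 4.17 and 5.88%. In thinned cells, 49.7% of Nqo1-negative cells, 87.6% of Nqo1-positive cells and 33.1% of basal cells showed none of the 4 genes.

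Age could not be tested, since each age is 1 library and age and library cannot be told apart. A gene is described as past the fold where P21 over P0 is at least 1.5-fold either way and its exact conditional interval excludes 1, with at least 20 UMIs in 1 of them. In the Omp gate 3 of the 4 members were higher at P21 by this rule, where 14.4% of 9915 genes were. Nfix was 1.98-fold higher (95% interval 1.72 to 2.28), Nfib 1.68-fold (1.204 to 2.40) and Nfia 2.08-fold (1.05 to 4.58), the last from 54 UMIs at P21 and 10 at P0. Nfic was 1.16-fold higher (0.767 to 1.78) and not past the fold. The same 3 were past it at P21 over P3 (Nfix 1.91-fold, Nfib 1.53-fold and Nfia 2.35-fold), where 9.59% of genes were, and Nfix alone at P7 over P0 (1.60-fold), where 13.4% were.

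The zone of the cells moved with age as well. Nqo1-negative cells made up 41.4, 49.9, 52.7 and 65.3% of the Omp gate at P0, P3, P7 and P21. Within Nqo1-negative cells Nfix was 1.498-fold higher at P21 than at P0 (1.29 to 1.75) and just under the threshold, Nfib was 1.40-fold higher (0.960 to 2.09) and Nfia 2.15-fold (0.924 to 6.14). None of the 4 was past the fold there, where 11.9% of 8825 genes were higher, and within Nqo1-positive cells Nfix was 1.19-fold higher (0.781 to 1.84) with none past it, where 12.3% of 6060 genes were. The choice of ages moved Nfix across the threshold. It was past the fold in Nqo1-negative cells at P21 over P3 (1.53-fold, 1.34 to 1.75), where 8.54% of genes were, and in Nqo1-positive cells at P7 over P0 (1.66-fold, 1.08 to 2.58), where 10% were. The Nqo1 classes, including cells of 1 thinned UMI, were also held in every library at their mean UMI shares over the libraries. So weighted, Nfix in the Omp gate stood at 193, 190, 269 and 281 CPM. Its log2 change, with 10 CPM added, was 0.52 in place of 0.94. Mature-neuron markers outside the gate, at 8964, 7712, 10300 and 14963 CPM in sum, and immature ones, at 1000, 1267, 882 and 567 CPM, moved in the Omp gate too, and their part in the Nfix values was not tested.

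**Figure D5:**
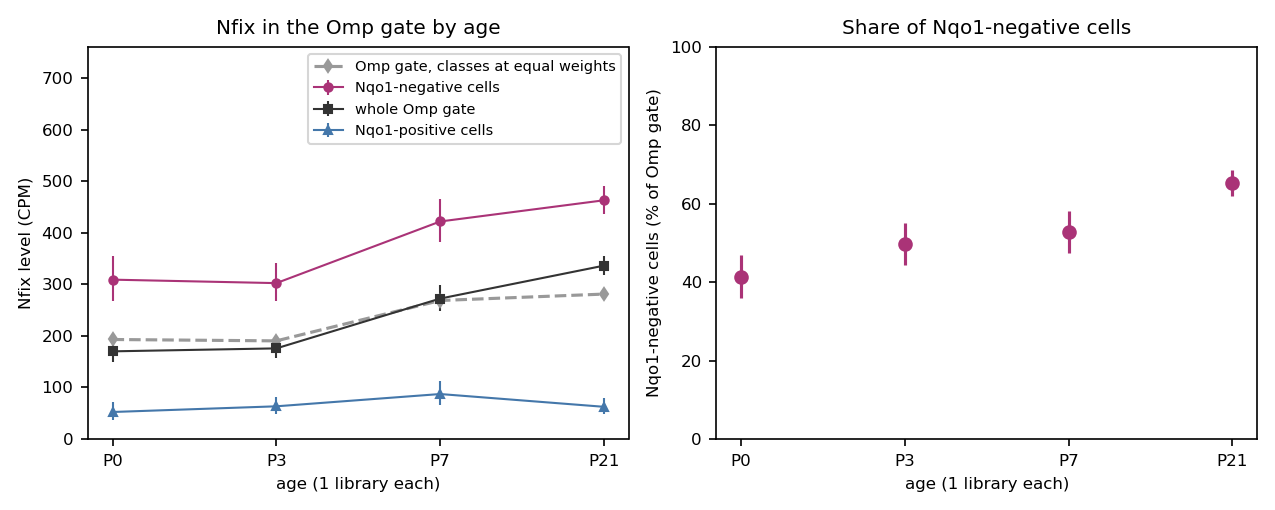
Left, Nfix level (y axis, CPM) by age (x axis) in the Omp gate, in its Nqo1 classes, and with the classes at the same weights in every library. Right, share of Nqo1-negative cells in the gate (y axis, %). The equal weights of the legend are equal between libraries, not between classes. Bars are 95% intervals of counting error (exact Poisson, left; Clopper-Pearson, right). The whole gate reaches 336 CPM at P21 and the weighted line 281 CPM.

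In progenitors Nfia was 4.98-fold higher at P21 than at P0 (3.08 to 8.22) and Nfix 7.26-fold higher (3.68 to 15.4), so that 2 of the 4 members were past the fold, where 5.17% of 5142 genes were higher. The P21 gate held 45 cells, of which 18 had an Nfia UMI and 20 an Nfix UMI, with no more than 6 and 4 UMIs in any 1 cell. Nfix was already at 86.9 CPM at P7, whereas Nfia stood at 54.8 CPM there. From thinned cells, with 3 Nfix UMIs at P21, the log2 change of Nfix was 0.98 in place of 2.22, and with another random thinning it was 2.43. Nfib was 1.42-fold higher in P21 progenitors (1.04 to 1.93).

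In Gap43 cells no member was past the fold at P21 over P0, where 7.53% of 8707 genes were higher; Nfix was 1.45-fold higher at P21 (1.15 to 1.84), and Nfic, with fewer than 20 UMIs at either age, 2.25-fold (1.05 to 4.74). At P21 over P3, Nfib (1.60-fold, 1.13 to 2.22) and Nfix (1.55-fold, 1.23 to 1.94) were past it, where 3.97% of genes were. At P7 over P0, Nfib (1.62-fold, 1.252 to 2.09) and Nfic (2.03-fold, 1.11 to 3.801) were, where 11.8% of genes were. In basal cells no member was past it at P21 over P0, where 11.6% of 2004 genes were higher and 20.5% lower. Nfib was 0.980-fold (0.693 to 1.38) and Nfia 0.979-fold (0.523 to 1.82) in basal cells at P21 over P0. In Gap43+Omp cells, where 8.08% of 5112 genes were higher, none was past it at P21 over P0, with Nfix at 1.34-fold (1.01 to 1.79). Nfix was past it there at P21 over P3 (1.52-fold, 1.13 to 2.04), where 4.79% of genes were, and at P7 over P0 (1.71-fold, 1.31 to 2.24), where 8.85% were.

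Genes reported from the mouse brain as regulated by nuclear factor I proteins made up a list of 15, of which 6 had enough UMIs in the neuronal steps. In Gap43 over progenitor cells 1 was higher, Cntn2, an axonal adhesion molecule (3.37, SE 0.645, n = 4 libraries, edgeR adjusted p = 2.51e-05), and 2 were lower, the histone methyltransferase gene Ezh2 (-2.23, SE 0.0990, n = 4 libraries, edgeR adjusted p = 2.52e-20) and Bbx (-1.05, SE 0.154, n = 4 libraries, edgeR adjusted p = 2.76e-07). The list's median was -0.32, beside 0.03 over all genes tested. In Omp over Gap43 cells none was higher and 2 were lower, Ezh2 (-1.89) and Cntn2 (-2.39), with a median of -0.21 beside -0.02. In basal over progenitor cells 5 of 7 were higher and 1 was lower, in stromal cells 6 of 9 and 2, and in glia 5 of 7 and 1, with Ezh2 lower in each of the 3. Over all genes tested, 26.7% were higher and 27.9% lower in basal cells, 29.9% and 30.6% in stromal cells, and 15.7% and 16% in glia. A list gene with few UMIs in progenitors could have enough for the test only through the gate where it was high. These counts are therefore no test against the shares over all genes. Fabp7, called higher in glia, is also on the glial marker list. Between Nqo1-negative and Nqo1-positive mature neurons none of the 4 tested was called (median 0.01 beside -0.0023 over all genes), while in Gap43 cells Ezh2 was higher in the Nqo1-negative ones.

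Over the 20 sums of 6 gates and 4 ages with at least 30 cells, Nfia and Nfib had the most similar patterns of any 2 members (Pearson r = 0.92 of log2 levels), whereas Nfib and Nfix had r = -0.33. These sums share libraries and depth, and the values are descriptions. Among 6564 genes, Tgfb3, Eif4g1 and Arid5b (0.95, 0.95 and 0.94) came closest to Nfia, and Pik3r1, Pabpc1 and Eef1g (0.97, 0.96 and 0.96) to Nfib. Pls3, Wwc2 and Ptn (0.97, 0.96 and 0.96) came closest to Nfic. No gene came as close to Nfix, for which Golph3, Igsf3 and Gpcpd1 had 0.84, 0.82 and 0.79.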

How the data were processed

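The series holds UMI counts per gene and cell in 1 table for each of 4 libraries. These counts are whole numbers as deposited by the authors, with no normalization; per the submitters' processing notes, Cell Ranger 2.1.1, Seurat and mouse build mm10 were used. Coordinates come from GENCODE M21 and promoters from RefSeq. Total UMIs were 9207027 (P0), 17770838 (P3), 8653791 (P7) and 6861044 (P21).

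Cells with at least 500 genes, at most 10% mitochondrial and at most 10% haemoglobin UMIs were kept (2691, 3220, 1785 and 1413). Of these, 2400, 3190, 1643 and 1316 had at least 1500 UMIs and were thinned to that depth for gating. Progenitor, Gap43 and Omp gates needed 2 UMIs and all others 3. Cells past several gates, other than Gap43 with Omp, were left out, which also removes some doublets of different gates. No doublet caller was run. Doublets within a gate remain, and the Gap43+Omp gate can hold doublets of Gap43 and Omp cells. Unthinned UMIs were summed per library and gate.

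Gate differences used edgeR 4.0.16 (quasi-likelihood, TMM scaling, library as block) in R 4.3.3, on genes with at least 50 UMIs and a UMI in at least 4 sums, with sums of at least 10 cells; DESeq2 1.42.0 was an alternative. Standard errors (SE) were derived from edgeR's output, as the log2 difference without its sign divided by the square root of the F statistic. The test was run on simulated data first. Gates were compared within libraries, so the library is a shared source of each pair of sums and pairs them by design. Of the gate comparisons planned 7 were fitted, and 3 were added after the data were seen; a further split of the progenitor gate and 1 of its marker genes are not reported here. P-values rest on how far gate differences vary between the libraries after the library block, with that variation pooled in part over all genes. The libraries, 4 or in glia 3, differ in age. Very small p-values lean on the pooled variation more than on a gene's own spread over so few libraries. Ages were described by CPM with exact Poisson intervals and ratios with exact conditional binomial intervals at 95%; these cover counting error only. A leading receptor had at least 3 UMIs and at least 2 times the next one.

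Named genes were the 4 members, those of the list of 15 reported targets that passed in the neuronal steps, and the 3 genes most like each member by Pearson r of log2(CPM + 10), among genes with at least 200 UMIs and 50 CPM in 1 sum. The members and lists were chosen with earlier results of these data known. Alternatives covered gates, thinning, scaling, filters, block, depth and each library left out.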

Additional observations from a re-analysis of the deposited data

Results flagged for a closer look

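Of 40 sets of 4 library values examined by gate and member, 2 held a value that stood apart from the other 3 by Dixon's criterion, which chance meets in about 1 of 20. Nfib in progenitors stood at 141 CPM at P0, against 192 to 200 CPM in the other libraries. Nfia in leukocytes stood at 4.24 CPM at P3, from 1 UMI, and at 0 in the other libraries.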

How the results depend on the processing

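Values are log2 differences. Over 38 gate results and their alternatives, 525 of 581 values kept direction and side of the threshold, 34 lost the call, 13 gained it and 9 turned sign, and 324 of 340 age values kept within their error. These totals include settings that changed nothing. Leaving out the cell filter gave the same counts of genes called, and adding 1 in place of 10 CPM does not enter the ratio by which age values were labelled. Calls on Nfic and Nfix in Omp over Gap43 cells, on Nfia, Nfib and Nfix in Gap43 over progenitor and in Omp over progenitor cells, and on Nfib and Nfix in the Nqo1 split of Omp cells, held in every alternative run. The cause of the changes below was not tested.

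The library block is the design, since both gates come from each library. Without the replicate block, calls were lost for Nfia (-0.68) and Nfib (-0.39) in Omp over Gap43 and Nfib in stromal over progenitor (0.46). DESeq2 lost Nfia in Omp over Gap43 (-0.76) and in the Nqo1 split (2.68), Nfib in stromal (0.41) and Nfix in basal cells (0.99) and between receptor classes (2.95). Fitting all 6 gates together lost Nfia (-0.81) and Nfib (-0.36) in Omp over Gap43 and Nfia in glia (0.71), and called Nfib in glia (-1.03). Stricter gates lost Nfia (-0.34) and Nfib (-0.17) in Omp over Gap43, called Nfic in Gap43 over progenitor (1.01) and Nfib in glia (-1.30), and turned Nfix in glia (0.053) and Nfic in the Acsm4 split (-0.12); looser gates called Nfib in glia (-0.89) and turned Nfic in the Acsm4 split (-0.073). Without a gene filter Nfib lost its stromal call (0.25), Nfib in glia (-1.02) and Nfic in Gap43 over progenitor (0.82) were called, and Nfic turned between classes (0.033). Median-of-ratios scaling called Nfic in Gap43 over progenitor (0.77) and Nfib in glia (-0.73).

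Thinned UMIs lost Nfia in Omp over Gap43 (-0.67) and Nfix between classes (3.38). Another thinning called Nfib in glia (-0.77) and turned Nfic between classes (0.023), as did DESeq2 (0.22). Acsm4 in place of Nqo1 lost Nfia (2.15), and the split of Gap43 cells turned Nfic (-1.19).

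Leaving out 1 library at a time gave ranges of 0.57 to 1.40 for Nfic in Gap43 over progenitor, -1.06 to -0.57 for Nfia and -0.52 to -0.27 for Nfib in Omp over Gap43, 0.65 to 1.42 for Nfix in basal cells, 0.37 to 0.63 for Nfib in stromal cells, and -0.93 to -0.52 for Nfib and -0.52 to 0.45 for Nfix in glia. The range was -0.043 to 0.19 for Nfic in the Acsm4 split.

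For P21 over P0, thinned UMIs gave 1.27 for Nfia and 1.39 for Nfix in Omp cells and 0.98 for Nfix in progenitors. Against P3 the Nfix progenitor change was 1.38. At P7 over P0 Nfia in progenitors was at 0.63 and Nfix in Omp cells at 0.65. Nqo1 classes at the same weights in every library gave 0.52 for Nfix in Omp cells.

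Counts of all genes called moved by over 1.5 times in several settings. The Nqo1 split called 485 genes, against 124 by DESeq2, 73 without the replicate block, 1027 without a gene filter, 147 from thinned UMIs, 280 without P21 and 322 without P7. Glia called 2483, against 1540 by DESeq2, 4243 in the joint fit, 1293 without P3 and 1053 thinned. Basal cells called 5032, against 2827 without P3 and 2616 thinned, and stromal cells 6240, against 3629 without P3 and 3353 thinned. Thinned UMIs also gave 4123 in place of 7205 in Gap43 over progenitor, 3757 in place of 5904 in Omp over Gap43 and 4971 in place of 7993 in Omp over progenitor cells. The added Acsm4 split called 206, against 35 to 692 over its alternatives, the Gap43 split 1508, against 505 at the least, and the receptor classes 57, against 12 to 283. Depth limits values from few UMIs, such as 7 of Nfia and 18 of Nfib in Nqo1-positive cells, 13 of Nfix in glia and 19 of Nfia in Gap43+Omp cells.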

Other observations

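Sustentacular-gated cells, the supporting cells of the epithelium, numbered 28, 10, 47 and 13 at P0, P3, P7 and P21 and entered no comparison. Nfib gave 68.1 ± 11.1% of the family's UMIs in them (SD, n = 4 libraries), and Nfia stood at 38.5, 56.5, 81.6 and 100 CPM from 4, 2, 18 and 9 UMIs. Nfix had 2, 0, 12 and 3 UMIs in the same cells.

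Among immature Nqo1-positive Gap43 cells (103, 61, 29 and 17 cells) Nfib had 8 UMIs, all in the P0 library, and Nfia had 4. Over all kept cells Nfix stood at 85.2, 87.6, 143 and 232 CPM at P0, P3, P7 and P21, whereas Nfib stood at 85.3, 149, 141 and 87.1 CPM. The share of cells in each gate differs between the libraries, and its part in these totals was not tested. Basal and stromal cells most often carried several members at once: after thinning, 20.8% of basal and 25.03% of stromal cells held UMIs of at least 2 of the 4 genes, beside 3.94% of progenitors and 3.41% of Omp cells.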
